A study of Homo sapiens with 42 samples.

Results

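ATF4, DDIT3 (the gene for CHOP), ATF3, ATF5, CEBPB, TRIB3, CHAC1, PPP1R15A, DDIT4 and SESN2 form the core of the ATF4 and CHOP stress response. They are 10 of the 28266 gene symbols in the deposited table of read counts, chosen by name as these transcription factors and genes known as their targets, with no threshold on a measured value. The choice was made with earlier results of these data known, so shares of all genes called are given below as a background and do not test the set. All 10 were found in the table, and all 10 passed the filter on low counts in both cell lines.

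The integrated stress response starts when a kinase, such as PERK in the endoplasmic reticulum (ER) or the amino acid sensor GCN2, phosphorylates the translation factor eIF2α. General protein synthesis then falls while the ATF4 mRNA is translated more efficiently, so ATF4 activity depends largely on a step that mRNA counts do not read. ATF4 protein induces genes of amino acid supply and stress regulators, among them CHOP, which can pair with ATF4 on shared targets and is best known for its link to cell death under prolonged ER stress.

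The study asked how loss of the coatomer I (COPI) coat, which carries vesicles between Golgi and ER, acts on senescent cells. IMR90 cells, a strain of normal human lung fibroblasts, were used in 2 forms: the parental line, and IMR90 ER:RAS, in which an oncogenic RAS fused to an oestrogen receptor domain is switched on by 4-hydroxytamoxifen (4OHT). ER:RAS cells received DMSO or 100 nM 4OHT (oncogene-induced senescence, OIS), and parental cells DMSO or 50 µg/ml bleomycin, a DNA-damaging drug, for 24 h. After 7 further days, doxycycline at 1 µg/ml induced the construct each culture carried, and RNA was taken 72 h later (day 10 in the labels). The construct was either the control or an shRNA targeting COPB2 (a COPI subunit, with 2 such shRNAs used). The labels call the control an shRNA control, while its count columns are headed shEV. Whether the control cells carried a hairpin is not stated. The labels give the genotype as WT for the control shRNA and COPI knockdown for both COPB2 shRNAs. The 12 groups held 3 libraries each in ER:RAS and 4 each in parental IMR90, 42 in all. The labels number the replicates but do not say whether they were separate cultures. For its gene set plots of the knockdown in both senescent systems, the study describes the replicates as independent experiments. Which library came from which experiment is not stated there. The p-values therefore measure the spread between these samples, part of which may be technical.

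Libraries held 13148194 to 23597310 counted reads. Levels are given as CPM (a gene's counts scaled to a common library size), after scaling by the trimmed mean of M values (TMM) over all 42 libraries, and every member had between 139 and 9646 reads in every library. COPB2 itself ranged from 267 to 620 CPM in the 14 control libraries and from 33.9 to 122 CPM in the 28 knockdown libraries, with no overlap. All 8 fibroblast markers checked were counted in every library (lowest: LUM, 44 reads), and the epithelial markers EPCAM, CDH1, KRT5 and KRT14 reached at most 32 reads. A difference is said to have risen, fallen or been called where edgeR's quasi-likelihood test gave a Benjamini-Hochberg adjusted p under 0.05 over all genes tested (14297 in ER:RAS, 14783 in IMR90). In RNA from whole cultures, a change in the share of cells expressing a gene and a change in RNA per cell cannot be told apart.

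Both knockdowns rest on 22-base guides, shown here because each finding is given for both hairpins apart; the study names them COPB2.1 and COPB2.2 and the labels number the shRNAs 1 and 2. Capitals mark the seed, bases 2 to 8 of the guide:
COPB2.1 guide: tTAAATATctttacaatgctgt
COPB2.2 guide: tAATTGAAcactctaatctgca
On GRCh37 the first pairs with chr3:139088345-139088366, in coding exon 11 of 22, and lies in 7 of 10 protein-coding COPB2 transcripts. The second pairs with chr3:139097987-139098008, in coding exon 4 of 22, and lies in all 10; COPB2 is on the minus strand.

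Among 18 promoter windows of the members (RefSeq, GRCh38.p14, 250 bases before to 50 after a start, all 10 members matched), the letters of the C/EBP-ATF response element core, TGATGNAA or its complement TTNCATCA, occurred upstream of ATF3 and CHAC1. The same letters occurred in 3.62% of the 35116 windows of all genes, and in at least 1 window of 4.46% of the 27305 genes. The cyclic AMP response element TGACGTCA, a palindrome, occurred upstream of PPP1R15A and in 1.85% of all windows (2.25% of genes). The ER stress element, searched in its consensus form on both strands, was in none of the members' windows and in 0.0769% of all (0.0916% of genes). The stretches are shown because they carry those letters, in capitals, 5′ to 3′ on the plus strand, where all 3 genes lie:
ATF3, chr1:212565190-212565249: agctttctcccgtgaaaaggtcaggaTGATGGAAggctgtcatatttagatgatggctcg
CHAC1, chr15:40953236-40953295: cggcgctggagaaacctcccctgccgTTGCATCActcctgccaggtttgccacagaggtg
PPP1R15A, chr19:48872337-48872396: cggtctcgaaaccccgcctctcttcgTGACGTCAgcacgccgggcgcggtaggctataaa
The matches start 191, 209 and 58 bases before the respective start. A match is a description of the letters, not evidence of binding.

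All positions that follow are RefSeq gene spans on GRCh38.p14. Scaled per kilobase of exon, CEBPB (118 CPM per kb over the 42 libraries) and ATF4 (117) were the most abundant of the 10 transcripts and ATF3 (6.16) the least abundant, with the other 7 between 18.8 (ATF5) and 49.1 (PPP1R15A). The span between the highest and the lowest of the 12 group means differed widely: 15-fold for TRIB3, 13.4-fold for CHAC1, 7.12-fold for DDIT4, 6.01-fold for DDIT3 and 5.12-fold for ATF3, against 1.76-fold for PPP1R15A and 1.86-fold for ATF5. In the order of group means, most neighbours overlapped: for ATF5, PPP1R15A, SESN2 and CEBPB the libraries of all 11 neighbouring pairs did. DDIT3 had 2 gaps between neighbours, and the first set both OIS knockdown groups apart from all others. The second, below bleomycin with shRNA 2, held against every lower group except bleomycin with shRNA 1. The lowest library of bleomycin with shRNA 2 (53.3 CPM) lay below the highest of bleomycin with shRNA 1 (63.4 CPM). ATF3 had 2 as well, the first below the OIS knockdown groups. The second, below the 3 bleomycin groups, held against every lower group except the OIS control. The lowest bleomycin control library (20.78 CPM) lay below the highest OIS control library (20.85 CPM). TRIB3 had 1, below the 3 OIS groups.

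**Figure D1:**
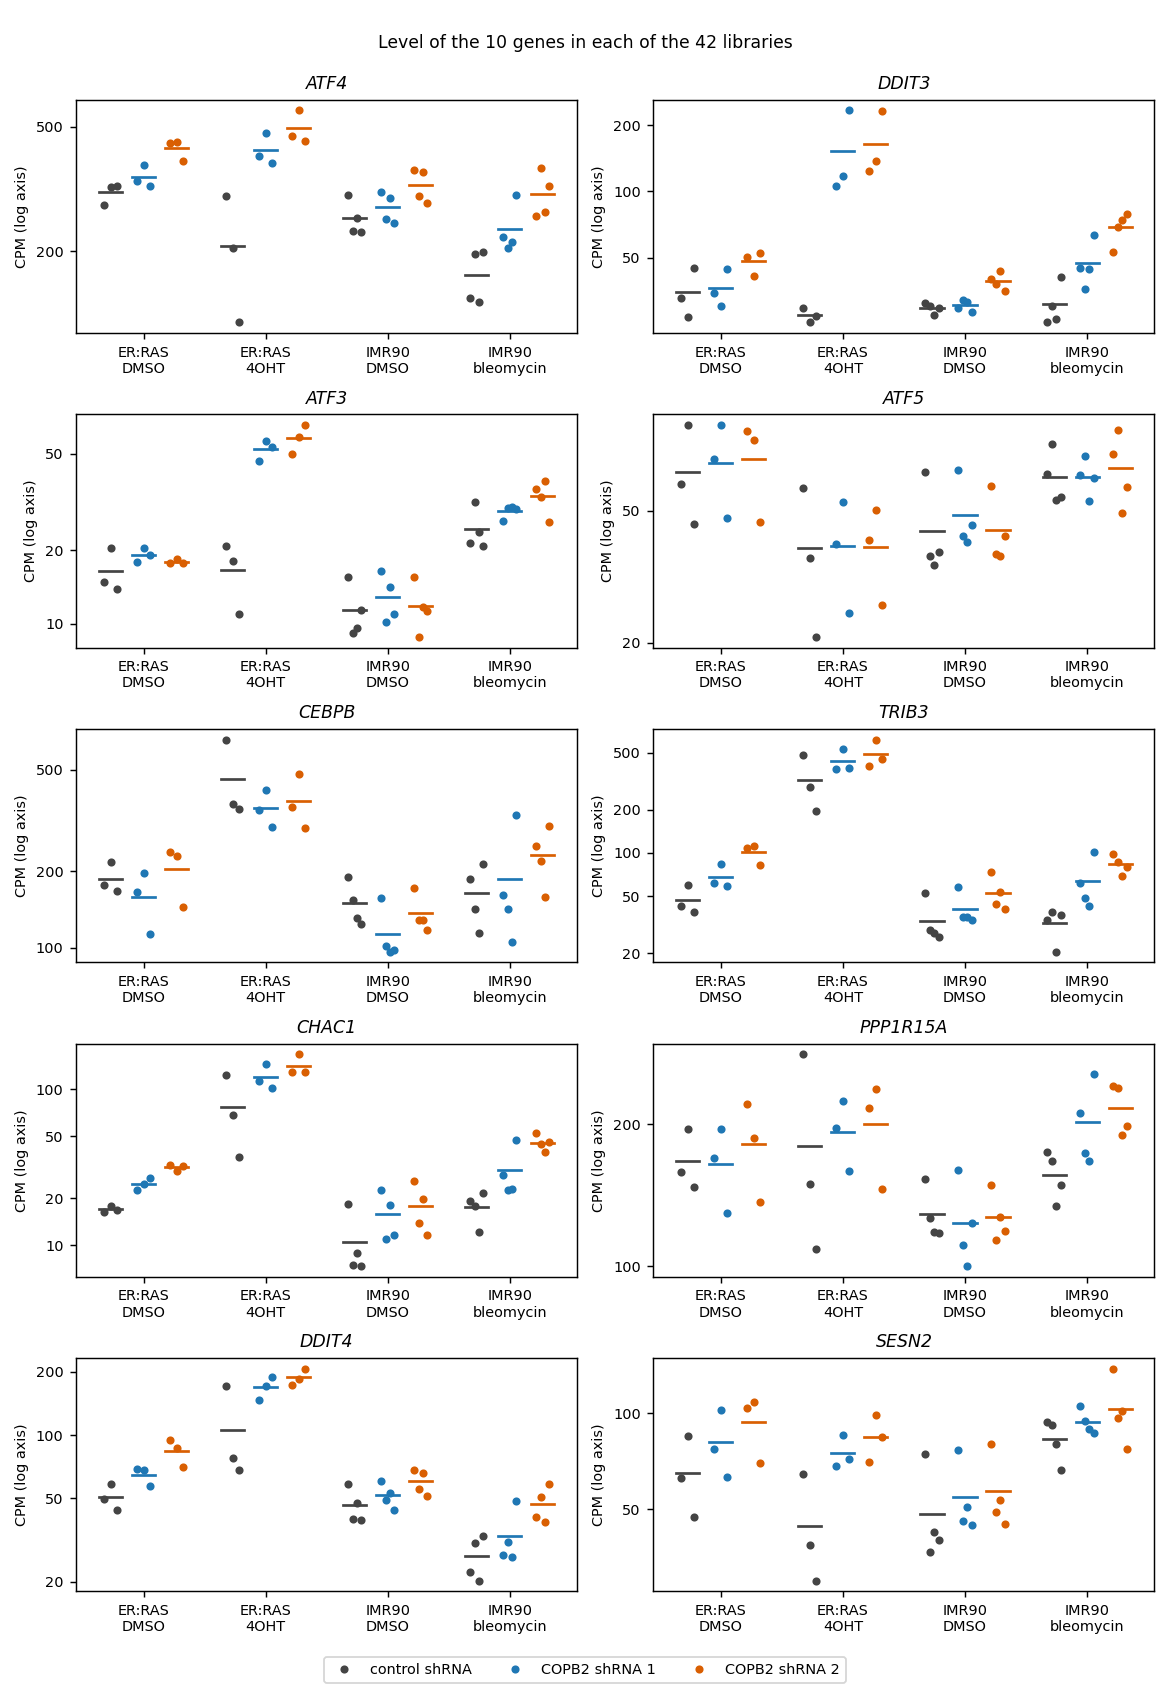
Level of each of the 10 genes in every library, in CPM on a log axis; points are libraries in replicate order, bars group means, and colours the shRNA, with 3 libraries per ER:RAS group and 4 per IMR90 group. DDIT3 in OIS cells sat between 25.6 and 29.6 CPM with the control shRNA and between 106 and 233 CPM with either COPB2 shRNA, while TRIB3 was already at 195 to 478 CPM in OIS cells with the control shRNA.

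Senescence alone, compared within the control shRNA, moved different members in the 2 systems. In OIS, 5 of the 10 members were called against 35.7% of all genes, 4 higher (background 15.5%) and 1 lower (20.2%); in bleomycin-treated cells 4 were called against 31.2%, 2 higher (15.4%) and 2 lower (15.8%). With so many genes called, these counts say little about the members as a group, and the results are those of the single genes. The median log2 fold change of the members was -0.04 in OIS and 0.18 with bleomycin, beside -0.08 and -0.01 over all genes tested.

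TRIB3 (chr20:380760-397559), a pseudokinase that ATF4 and CHOP induce and that restrains both, rose most among the members in OIS. Its level was 42.7, 59.5 and 38.7 CPM in the DMSO libraries and 478, 288 and 195 CPM with 4OHT, a log2 fold change of 2.66 ± 0.28 (SE, n = 3 libraries per group, edgeR adjusted p = 2.85e-06). The lowest 4OHT library lay above the highest DMSO library. With bleomycin it was 34.3, 38.9, 20.5 and 36.8 CPM against 52.8, 28.8, 27.6 and 25.7 CPM in DMSO, overlapping groups with a log2 fold change of -0.07 ± 0.29 (n = 4, adjusted p = 0.894). The difference between the 2 responses, tested as an interaction over both lines, was 2.81 ± 0.43 on the log2 scale (adjusted p = 1.07e-05).

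CHAC1 (chr15:40953471-40956512), which degrades glutathione and is induced by ATF4, stood at 16.2, 17.8 and 16.8 CPM in DMSO and 124, 68.5 and 36.6 CPM in OIS, a log2 fold change of 2.05 ± 0.30 (adjusted p = 7.22e-05), with no overlap. In bleomycin-treated cells it was 19.2, 17.8, 12.1 and 21.5 CPM against 18.4, 7.43, 8.95 and 7.32 CPM, where the single high DMSO library, replicate 1, overlapped the treated group (0.73 ± 0.32, adjusted p = 0.0909). Without that library the log2 fold change was 1.14 (adjusted p = 0.00785). The OIS response exceeded the bleomycin response by 1.42 ± 0.47 (adjusted p = 0.0284), a call that was lost on leaving out any of 5 libraries; it was 0.89 (adjusted p = 0.192) without OIS control replicate 1 and 1.01 (0.114) without IMR90 DMSO control replicate 1, and adjusted p was 0.0618, 0.0525 and 0.0625 without ER:RAS DMSO control replicate 1 or 3 or bleomycin control replicate 3.

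CEBPB (chr20:50190583-50192690) encodes C/EBPβ, a partner of ATF4 and CHOP and a known activator of inflammatory genes in senescence. It was 177, 217 and 167 CPM in DMSO and 657, 367 and 352 CPM in OIS (1.19 ± 0.26, adjusted p = 0.00192), without overlap. With bleomycin the 4 libraries at 187, 142, 114 and 214 CPM overlapped the DMSO libraries at 190.4, 154, 131 and 124 CPM (0.11 ± 0.29, adjusted p = 0.83). The responses differed by 1.16 ± 0.43, at an adjusted p of 0.0507, just outside the threshold; adjusted p was 0.0418 with DESeq2 size factors, 0.031 with the DESeq2 Wald test and 0.00515 with the replicate block, and the difference was called in 5 of 14 fits that each left out 1 library. A short antisense gene, CEBPB-AS1, overlaps it with 14 to 66 reads per library.

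DDIT4 (chr10:72273924-72276036, also REDD1), a stress-induced inhibitor of the growth kinase complex mTORC1, was called in opposite directions in the 2 systems. Its OIS libraries read 172, 77.9 and 68 CPM against 49.5, 58.1 and 43.9 CPM in DMSO (0.96 ± 0.26, adjusted p = 0.0102). Its bleomycin libraries read 22.2, 30.5, 20.2 and 33 CPM against 58.7, 39.7, 47.4 and 39.5 CPM (-0.83 ± 0.21, adjusted p = 0.00423). Neither pair of groups overlapped, and the difference between the responses was 1.88 ± 0.35 (adjusted p = 1.38e-04). The rise in OIS leaned on replicate 1: without it the log2 fold change was 0.50 (adjusted p = 0.0412).

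SESN2 (chr1:28259518-28282491), a sestrin that also lowers mTORC1 activity and answers to p53 as well as ATF4, rose with bleomycin and not in OIS. With bleomycin it was 94.3, 92.3, 80.0 and 66.5 CPM against 74.5, 36.7, 42.5 and 40.2 CPM (0.76 ± 0.24, adjusted p = 0.017), and only the DMSO library of replicate 1 overlapped the treated group; leaving out IMR90 DMSO control replicate 2 or 4 raised the adjusted p to 0.0516 and 0.0572. In OIS it was 64.6, 38.6 and 29.8 CPM against 62.6, 84.8 and 47.2 CPM (-0.65 ± 0.27, adjusted p = 0.0705). The OIS response was lower than the bleomycin response by 1.33 on the log2 scale (SE 0.38, adjusted p = 0.0107). Without OIS control replicate 1 its OIS value passed, at -0.95 (adjusted p = 0.0118). Of 14 listed mTORC1 regulators and p53 targets, 3 rose and 3 fell in OIS and 8 rose and 2 fell with bleomycin; CDKN1A, the p53-induced cell cycle inhibitor, rose in both (2.47 ± 0.35 and 2.58 ± 0.34).

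ATF3 (chr1:212565407-212620777), a stress-inducible transcription factor downstream of ATF4 and p53, rose with bleomycin from 15.5, 9.13, 9.59 and 11.3 CPM to 21.5, 31.8, 23.8 and 20.8 CPM (1.08 ± 0.20, adjusted p = 2.60e-04), without overlap. In OIS it stood at 20.8, 18.2 and 11 CPM, around the DMSO libraries at 14.9, 20.4 and 13.9 CPM (-0.08 ± 0.22, adjusted p = 0.827). The interaction was -1.08 ± 0.30 (adjusted p = 0.00945).

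ATF4 (chr22:39520559-39522686) itself was lower in both senescent systems. It was 300.1, 205 and 118 CPM in OIS against 280.3, 321 and 323 CPM in DMSO (-0.69 ± 0.22, adjusted p = 0.0263), where OIS replicate 1 overlapped the DMSO libraries. This call did not last: it was present in 1 of 6 fits that each left out 1 library, and adjusted p was 0.114 with DESeq2 size factors and 0.1 with the DESeq2 Wald test. With bleomycin it was 141, 195, 137 and 198 CPM against 302, 233, 254 and 231 CPM (-0.63 ± 0.16, adjusted p = 0.00483), with no overlap and the call present in all 8 such fits. The median of all genes in OIS was -0.08 under TMM and 0.04 under DESeq2 size factors, so small OIS changes depend on the scaling. The ratio of TRIB3 to ATF4 within a library was 0.12 to 0.186 in ER:RAS DMSO control cells and 1.40 to 1.65 in OIS control cells, ranges that did not overlap.

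The remaining 3 members were not called in either system. DDIT3 (chr12:57516588-57520517) was 29.6, 25.6 and 27.1 CPM in OIS and 32.9, 27 and 45.1 CPM in DMSO (-0.46 ± 0.35, adjusted p = 0.345), and 25.4, 30.3, 26.4 and 41 CPM with bleomycin and 31.2, 30.1, 27.5 and 29.7 CPM in DMSO (0.02 ± 0.16, adjusted p = 0.936). PPP1R15A (chr19:48872421-48876058, also GADD34), which brings a phosphatase to eIF2α and so ends the response, gave -0.00 ± 0.28 and 0.25 ± 0.17. ATF5 (chr19:49928906-49933935), a relative of ATF4 that is also known for mitochondrial stress, gave -0.87 ± 0.37 (adjusted p = 0.083) and 0.51 ± 0.23 (adjusted p = 0.0972), and its responses differed by -1.31 ± 0.45 (adjusted p = 0.0366), a call present in 5 of 14 fits that each left out 1 library. Without OIS control replicate 1 the OIS value of ATF5 was -1.24 (adjusted p = 0.0302), and without IMR90 DMSO control replicate 1 the bleomycin value was 0.79 (0.0121). ATF5 overlaps NUP62, with 777 to 1711 reads per library, and IL4I1, with 8 to 121.

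**Figure D2:**
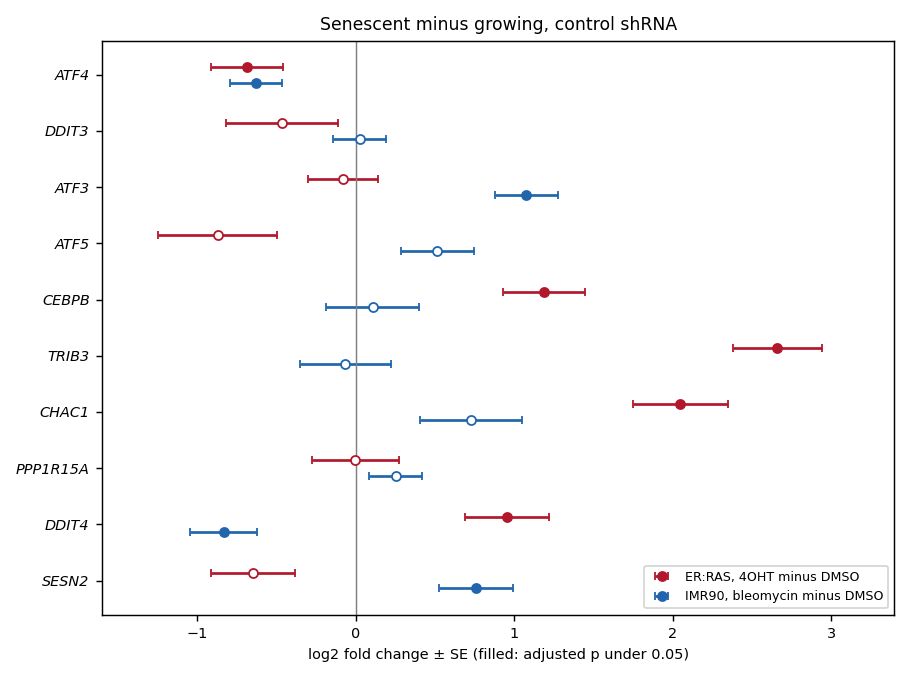
Log2 fold change with its standard error for each gene in senescent against growing cells carrying the control shRNA, in OIS (red, n = 3 libraries per group) and after bleomycin (blue, n = 4); filled points passed an adjusted p of 0.05. TRIB3, CHAC1, CEBPB and DDIT4 were called higher in OIS, ATF3 and SESN2 with bleomycin, and DDIT4 lies at 0.96 in OIS and at -0.83 with bleomycin.

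Over both systems, 6 of the 10 members had interactions below an adjusted p of 0.05, against 20.3% of the 15299 genes in that fit: TRIB3, DDIT4 and CHAC1 higher in OIS (background 8.14%) and ATF3, SESN2 and ATF5 lower (12.1%). The systems also differ in cell line, drug and number of libraries, which cannot be told apart here.

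Marker genes moved with senescence as well: 6 of 8 fibroblast markers fell in each system (DCN from 1582 to 10.6 CPM in OIS and from 2154 to 532 CPM with bleomycin), with summed levels of 14921 to 24404 CPM in OIS against 18041 to 24985 CPM in DMSO, and 11826 to 20843 against 21680.0 to 27354 CPM. The 4 endothelial markers summed to 9.25 to 11.1 CPM in OIS against 1.20 to 3.67 CPM, and to 2.12 to 3.64 CPM with bleomycin against 3.18 to 4.77 CPM, and the 4 epithelial markers reached at most 1.87 CPM. Of the leukocyte markers CD68, a lysosomal protein, rose from 27.2 ± 11.3 to 114 ± 5.83 CPM in OIS (means ± SD, n = 3) and from 19.8 ± 7.85 to 69.9 ± 18.3 CPM with bleomycin (n = 4), while CD3E had 7 reads or fewer in every library. The part of these shifts in the members' values was not tested.

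The other genes of the pathway were mixed in the same contrasts. Of 28 tested ATF4 targets outside the members, 8 rose and 2 fell in OIS (median 0.36) and 5 rose and 5 fell with bleomycin (median -0.24). GDF15, a stress-induced cytokine, rose in both (3.90 ± 0.36 and 3.10 ± 0.55), and NUPR1, a stress-induced chromatin regulator, fell in both (-4.78 ± 0.66 and -1.35 ± 0.25). In OIS CTH, which makes cysteine, rose from 3.06 ± 0.382 to 19.7 ± 1.18 CPM (means ± SD over n = 3; log2 fold change 2.59 ± 0.25, SE, adjusted p = 1.28e-06). With bleomycin PHGDH, the first enzyme of serine synthesis, fell from 148 ± 52.6 to 32.3 ± 15.2 CPM (n = 4; log2 fold change -2.22 ± 0.29, adjusted p = 6.11e-06). Of 10 CHOP targets and death genes, 5 rose and 2 fell in each system; TNFRSF10A, a TRAIL death receptor, rose by 2.14 ± 0.26 in OIS and 2.27 ± 0.26 with bleomycin, while BCL2L11, which encodes the death activator BIM, fell by 2.18 and 1.91 on the log2 scale. Of 18 genes for eIF2 kinases, phosphatases and exchange factors, 2 rose in each, with EIF2B3, a subunit of the exchange factor that phosphorylated eIF2 inhibits, in both (1.06 ± 0.25 and 0.56 ± 0.16). Of 16 tested bZIP partners and Tribbles relatives, 2 rose and 5 fell in OIS and 1 rose and 6 fell with bleomycin; TRIB1, a relative of TRIB3, rose in OIS (2.72 ± 0.17), and TRIB2 fell with bleomycin (-1.28 ± 0.18). Of 30 genes of the ATF6 and XBP1 branches, 2 rose and 1 fell in OIS and 6 rose with bleomycin.

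COPB2 knockdown in OIS cells raised DDIT3 and ATF3 with both shRNAs, and ATF4 with shRNA 2. Of the 10 members 2 were called with shRNA 1 and 3 with shRNA 2, all higher, where 0.14% and 0.224% of all genes were called (0.126% and 0.21% higher). The median over the 10 members was 0.67 with shRNA 1 and 0.87 with shRNA 2, beside -0.07 and -0.08 over all genes, and 9 of 10 fitted values were above 0 with each. Both shRNAs were compared with the same 3 control libraries, which also serve as the OIS group above, so these comparisons are not independent of each other.

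DDIT3 was at 29.6, 25.6 and 27.1 CPM in the OIS control libraries, 106, 118 and 233 CPM with shRNA 1 and 124, 137 and 233 CPM with shRNA 2. All 6 knockdown libraries lay above the 3 controls, and replicate 3 was the highest under both shRNAs. The log2 fold change was 2.49 ± 0.37 (n = 3, adjusted p = 0.00822), a 5.61-fold rise, with shRNA 1 and 2.59 ± 0.37 (adjusted p = 0.00471), or 6.04-fold, with shRNA 2. Leaving out OIS control replicate 2 or 3 moved the adjusted p for shRNA 1 to 0.077 and 0.0502. DDIT3 shares its locus with MARS1, a tRNA synthetase gene with 2624 to 7325 reads, and MBD6 with 294 to 1132 reads. The libraries were directional but the counting mode is not given in the sources used here, so a share of reads from these neighbours was not tested.

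ATF3 was at 20.8, 18.2 and 11 CPM in the OIS controls, 46.7, 56.5 and 53.3 CPM with shRNA 1 and 50.2, 58.8 and 65.7 CPM with shRNA 2, again without overlap. The log2 fold changes were 1.65 ± 0.23 (adjusted p = 0.00461) and 1.81 ± 0.23 (adjusted p = 0.00254), and both were called in all 6 fits that left out 1 library.

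ATF4 was at 300.1, 205 and 118 CPM in the controls, 402, 478 and 384 CPM with shRNA 1 and 467, 563 and 451 CPM with shRNA 2. The groups did not overlap, though the controls spread widely, and the log2 fold changes were 1.02 ± 0.23 (adjusted p = 0.152) and 1.25 ± 0.23 (adjusted p = 0.0304). The shRNA 2 call was present in 1 of 6 fits that left out 1 library and was lost with DESeq2 size factors (adjusted p = 0.0815) and with no filter on low counts (0.0679). The shRNA 1 value passed without OIS control replicate 1 (1.37, adjusted p = 0.0164) and, with all libraries, under the replicate block within each treatment (1.07, adjusted p = 0.0426). That blocked fit, chosen after the data had been seen, called 72 of 14297 genes with shRNA 1, against 20 without the block. Same-numbered control and shRNA 1 libraries did not all deviate together (r = 0.575, -0.0957 and 0.809).

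TRIB3, CHAC1 and DDIT4 were not called, nor was CEBPB (given below), the other member called higher in OIS. TRIB3 was at 478, 288 and 195 CPM in the controls, 383, 533 and 391 CPM with shRNA 1 and 406, 616 and 449.6 CPM with shRNA 2 (0.45 ± 0.26 and 0.62 ± 0.26). CHAC1 was at 124, 68.5 and 36.6, then 113, 145 and 102 and 128, 167 and 129 CPM (0.66 ± 0.29 and 0.90 ± 0.29, adjusted p = 0.61 for the latter). DDIT4 was at 172, 77.9 and 68, then 147, 171 and 189 and 172, 186 and 207 CPM (0.69 ± 0.26 and 0.84 ± 0.26, adjusted p = 0.553 for the latter). In each of these genes control replicate 1 lay above the other controls and reached into the shRNA 1 libraries, and for TRIB3 into those of shRNA 2 as well.

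The same library was the highest of the 3 OIS controls for all 10 members, and replicate 3 the lowest for 9. The TMM factor of replicate 1 was 0.611, the lowest of the 42 libraries, against 0.831 and 0.907 in replicates 2 and 3 at similar read totals. A lower factor raises every CPM of a library, and the part of this in its rank was not tested. Without replicate 1, 4 members were called with shRNA 1 and 5 with shRNA 2. DDIT4 then gave 1.20 (adjusted p = 0.0164) and 1.36 (0.0053), and CHAC1 1.42 with shRNA 2 (0.031). These calls therefore turn on 1 control library, and what set it apart was not tested. In a fit to the 6 compared libraries alone, no member was called with either shRNA: adjusted p was 0.494 and 0.213 for DDIT3 and 0.659 and 0.361 for ATF3, at nearly the same fold changes.

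SESN2 was at 64.6, 38.6 and 29.8 CPM in the OIS controls, 68.4, 85.5 and 71.7 CPM with shRNA 1 and 70.5, 98.7 and 84.6 CPM with shRNA 2, without overlap, at 0.77 ± 0.27 (adjusted p = 0.95) and 0.93 ± 0.27 (adjusted p = 0.411). PPP1R15A (0.10 ± 0.28 and 0.15 ± 0.28) and ATF5 (0.02 ± 0.37 and 0.01 ± 0.37) had fitted changes smaller than their standard errors. CEBPB had the only negative fitted values, -0.38 ± 0.25 and -0.29 ± 0.25, from 657, 367 and 352 CPM to 346, 417 and 297 and 357, 480.4 and 294 CPM. Counting groups that did not overlap, 4 members were higher with shRNA 1 (background 4.11%) and 6 with shRNA 2 (4.13%).

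In bleomycin-treated cells all 10 members had fitted values above 0 with both shRNAs, with medians of 0.35 and 0.67 beside 0.01 over all genes in each. With shRNA 2 DDIT3 and ATF4 rose, 2 of 10 members against 0.0744% of all genes (0.0676% higher). With shRNA 1 none was called against 0.00676%, though 5 had an unadjusted p under 0.05, as did 208 of all 14783 genes. The DESeq2 Wald test called no member with shRNA 1 and 5 with shRNA 2, where it called 35 of 15035 genes. Replicate numbers paired the libraries within this treatment (same-numbered libraries deviated together in every pair), and with the number as a block within each treatment 4 members were called with shRNA 1 (background 0.237%) and 8 with shRNA 2 (4.48%). That blocked fit was chosen after the data had been seen. The planned replicate block called 0 members with shRNA 1 and 4 with shRNA 2, where it called 3 and 28 of all 14783 genes. In the bleomycin results that follow, the block is the one within each treatment.

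DDIT3 was at 25.4, 30.3, 26.4 and 41 CPM in the bleomycin controls, 45, 35.9, 44.6 and 63.4 CPM with shRNA 1 and 53.3, 69.3, 74 and 78.9 CPM with shRNA 2. The shRNA 2 libraries lay above all controls, while those of shRNA 1 overlapped them through control replicate 4. The log2 fold changes were 0.62 ± 0.17 and 1.17 ± 0.17 (adjusted p = 0.00241, n = 4), or 1.54-fold and 2.24-fold. With the block within each treatment, edgeR gave adjusted p of 0.0179 and 5.73e-06.

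ATF4 was at 141, 195, 137 and 198 CPM, then 221, 204, 214 and 302 and 258, 369.5, 266 and 323 CPM, with no overlap for either shRNA. The values were 0.49 ± 0.16 and 0.86 ± 0.16 (adjusted p = 0.041 for the latter). The call with shRNA 2 was present in only 1 of 8 fits that left out a library, with log2 fold changes from 0.75 to 0.97. With the block, edgeR gave adjusted p of 0.0206 and 2.62e-05 for shRNA 1 and 2.

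TRIB3 was at 34.3, 38.9, 20.5 and 36.8 CPM, then 61.7, 48.6, 42.8 and 101 and 97.4, 86.8, 69.5 and 80.1 CPM, also without overlap (0.97 ± 0.29 and 1.36 ± 0.29, adjusted p = 0.1 for the latter, and 0.0165 and 4.75e-05 with the block). CHAC1 was at 19.2, 17.8, 12.1 and 21.5 CPM, then 28.2, 22.5, 23 and 47.5 and 52, 44.6, 39.4 and 45.7 CPM (0.78 ± 0.32 and 1.37 ± 0.32, adjusted p = 0.196 for the latter, and 0.0319 and 2.74e-05 with the block). With shRNA 2 both genes also passed in the DESeq2 Wald test without a block (adjusted p = 0.00367 for TRIB3 and 0.015 for CHAC1). Whether their response differed from that in OIS was not tested.

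DDIT4, PPP1R15A, ATF3 and CEBPB passed with shRNA 2 under the block within each treatment, and DDIT4 also in the DESeq2 Wald test (adjusted p = 0.0497). DDIT4 was at 22.2, 30.5, 20.2 and 33 CPM in the controls and 40.5, 50.8, 38.4 and 58.7 CPM with shRNA 2 (0.84 ± 0.21, adjusted p = 0.28, blocked 2.59e-05). PPP1R15A gave 0.48 ± 0.17 (blocked adjusted p = 0.0151), ATF3 0.46 ± 0.20 (0.0343) and CEBPB 0.51 ± 0.29 (0.0168). SESN2 (0.32 ± 0.23, blocked 0.0551) and ATF5 (0.10 ± 0.23, blocked 0.51) did not pass in either fit. Groups did not overlap for 3 members with shRNA 1 (background 0.629%) and 6 with shRNA 2 (1.14%), all higher. CEBPB spread widely with shRNA 1, at 161, 141, 106 and 334 CPM, with replicate 4 the highest.

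**Figure D3:**
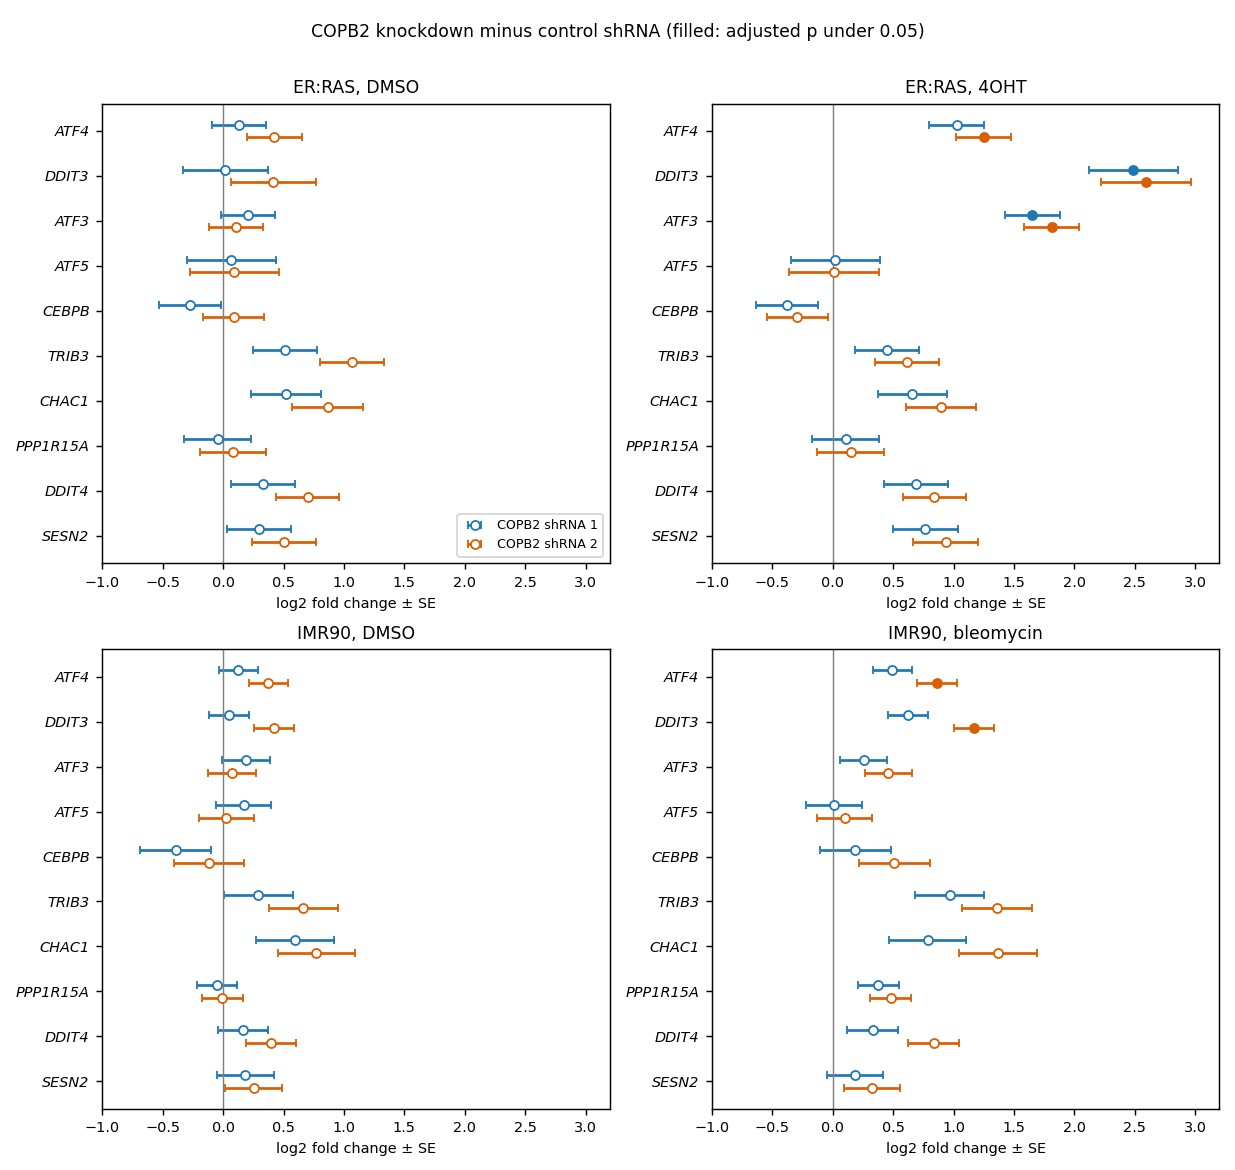
Log2 fold change with its standard error after COPB2 knockdown against the control shRNA, for each gene in the 4 cell states, with shRNA 1 in blue and shRNA 2 in orange; filled points passed an adjusted p of 0.05 without the replicate block. DDIT3 reaches 2.49 and 2.59 in OIS and 0.62 and 1.17 with bleomycin, and no point is filled in either DMSO state.

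In growing cells none of the 10 members was called in any of the 4 knockdown comparisons by edgeR, by the DESeq2 Wald test or with the replicate block, where 0.00699% of all genes were called with each shRNA in ER:RAS and 0.00676% with each in IMR90, in every case the single gene being COPB2. At an unadjusted p under 0.05 the members numbered 0 and 3 in ER:RAS with shRNA 1 and 2, beside 116 and 133 of all 14297 genes, and 0 and 4 in IMR90, beside 165 and 166 of 14783. The medians of the members were 0.17, 0.42, 0.17 and 0.31 in that order. TRIB3 in ER:RAS DMSO cells was at 42.7, 59.5 and 38.7 CPM in the controls, 62, 83.4 and 58.8 CPM with shRNA 1 and 107, 112 and 82.4 CPM with shRNA 2, the last without overlap (1.07 ± 0.27). CHAC1 there was at 16.2, 17.8 and 16.8 CPM, then 22.7, 24.5 and 27.1 and 32.8, 30.1 and 32.1 CPM, without overlap for either (0.52 ± 0.29 and 0.86 ± 0.29). DDIT3 in ER:RAS DMSO cells read 32.9, 27 and 45.1 CPM in the controls, 34.5, 30.1 and 44.2 CPM with shRNA 1 and 50.6, 41.2 and 52.7 CPM with shRNA 2 (0.02 ± 0.35 and 0.42 ± 0.35). In IMR90 DMSO cells it read 31.2, 30.1, 27.5 and 29.7 CPM, then 29.6, 32.1, 31.5 and 28.4 and 40.2, 38, 43.7 and 35.5 CPM, the last above all controls (0.42 ± 0.16). Groups without overlap numbered 2 and 4 members in ER:RAS (background 2.43% and 1.92%) and 0 and 1 in IMR90 (0.852% and 0.731%), all higher.

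Whether the knockdown response differed between senescent and growing cells was tested directly. Mean COPB2 left with shRNA 1 and 2 was 100 and 113 CPM in OIS against 45.7 and 51.8 CPM in ER:RAS DMSO cells. It was 95.6 and 94.8 CPM with bleomycin against 50.1 and 61.6 CPM in IMR90 DMSO cells. Control means were also higher in senescent cells (479 against 340 CPM and 451 against 361 CPM). The part of this in the interactions was not tested. For DDIT3 the ER:RAS interaction was 2.47 ± 0.50 with shRNA 1 (adjusted p = 0.446) and 2.18 ± 0.50 with shRNA 2 (adjusted p = 0.589), and for ATF3 it was 1.45 ± 0.31 (0.487) and 1.71 ± 0.32 (0.197). By edgeR no member and 0% of all genes were called in any of the 4 interactions; at an unadjusted p under 0.05 the members numbered 3 and 3 in ER:RAS, beside 194 and 263 of all genes, and 1 and 2 in IMR90, beside 121 and 285. The DESeq2 Wald test called DDIT3 with both shRNAs in ER:RAS (adjusted p = 0.00383 and 0.0213) and ATF3 with shRNA 2 (0.00422), and none in IMR90; over all genes it called 8 of 21212 and 12 of 14632 in ER:RAS. For DDIT3 in IMR90 the interactions were 0.58 ± 0.23 and 0.74 ± 0.23.

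The 2 shRNAs were also compared with each other. In OIS DDIT3 differed by 0.10 ± 0.35 (shRNA 2 minus shRNA 1), ATF3 by 0.16 ± 0.22 and ATF4 by 0.23 ± 0.22, each about as large as its standard error or smaller. In bleomycin-treated cells shRNA 2 gave higher fitted values for all 10 members, with a median of 0.35 beside -0.02 over all genes. Without the block edgeR and the DESeq2 Wald test called no member in any state (background 0% in edgeR). At an unadjusted p under 0.05 the members numbered 0, 0, 1 and 3 in ER:RAS DMSO, OIS, IMR90 DMSO and bleomycin, beside 77, 78, 205 and 1026 of all genes. The block within each treatment, which the replicate numbers allow here, called 5 in bleomycin-treated cells against 8.62% of all genes. They were ATF4 (0.37, adjusted p = 0.0389), DDIT3 (0.56, 0.0304), DDIT4 (0.53, 0.0227), CHAC1 (0.64, 0.0328) and CEBPB (0.41, 0.0433). The planned replicate block called 0 members there. COPB2 itself did not differ between the shRNAs there beyond its error (-0.01 ± 0.17).

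**Figure D4:**
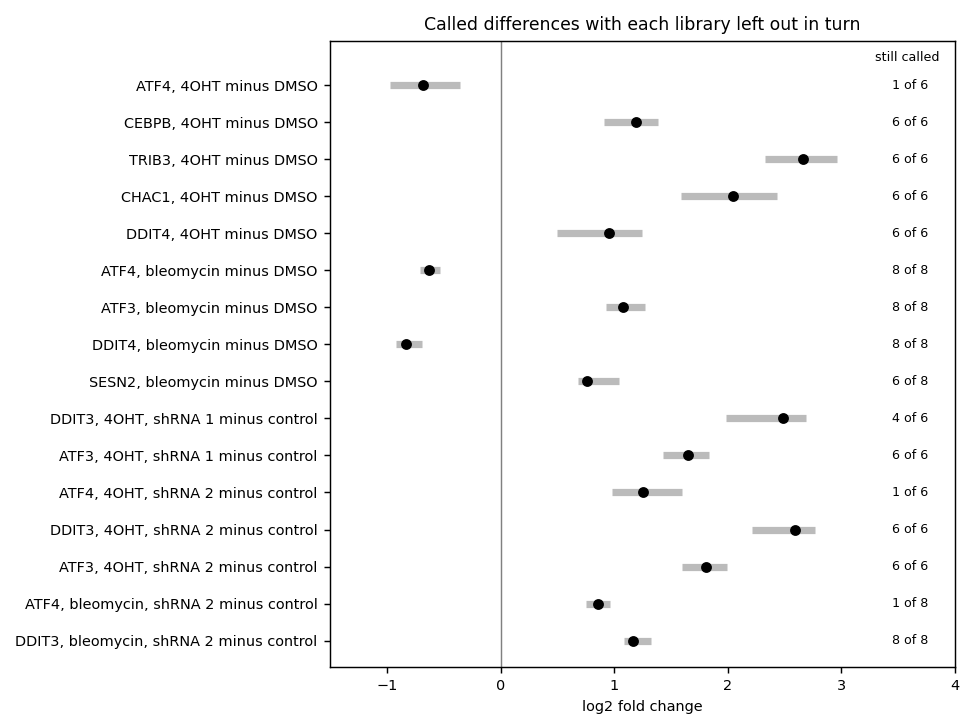
Fitted log2 fold changes called without the replicate block (points) and their range when each compared library was left out in turn (grey bars), with the number of those fits in which the call was present at the right. ATF3 with either shRNA in OIS was called in 6 of 6 fits and DDIT3 with shRNA 2 in 6 of 6 in OIS and 8 of 8 after bleomycin, whereas ATF4 was called in 1 of 6, 1 of 6 and 1 of 8 for OIS, for shRNA 2 in OIS and for shRNA 2 after bleomycin.

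Among the other genes of the pathway, few passed in the knockdown comparisons. Of the 28 ATF4 targets outside the members, 23 and 26 had fitted values above 0 in OIS with shRNA 1 and 2 (medians 0.46 and 0.54). In bleomycin-treated cells 28 and 27 did (medians 0.30 and 0.62). Only 1, 1, 0 and 4 were called in that order, where 0.14%, 0.224%, 0.00676% and 0.0744% of all genes were. INHBE, which encodes the activin βE chain, rose in OIS from 1.27 ± 0.894 CPM to 34.4 ± 12 CPM with shRNA 1 (4.80 ± 0.53, adjusted p = 0.0022) and 38.3 ± 12.6 CPM with shRNA 2 (4.95 ± 0.53, adjusted p = 0.00159). With shRNA 2 after bleomycin, INHBE (2.33 ± 0.41), CTH (1.42 ± 0.23), the mitochondrial folate enzyme MTHFD2 (0.90 ± 0.17) and the mitochondrial gluconeogenic enzyme PCK2 (1.22 ± 0.24) rose. None of the 10 CHOP targets and death genes was called in any knockdown comparison, where at most 0.224% of all genes were called. With so few genes called, that count says little about these 10. Their medians in OIS, where DDIT3 was 5.61-fold and 6.04-fold higher, were 0.03 and 0.07.

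The ATF6 and XBP1 branches of the unfolded protein response were read with 30 genes, of which 1 and 3 rose in OIS with shRNA 1 and 2 and 0 and 1 after bleomycin. HERPUD1, an ER membrane protein of ER-associated degradation, rose with both shRNAs in OIS (1.40 ± 0.21 and 1.61 ± 0.21) and with shRNA 2 after bleomycin (1.10 ± 0.16). HSPA5, the ER chaperone BiP, rose with shRNA 2 in OIS from 976 ± 352 to 3842 ± 1199 CPM (1.98 ± 0.36, adjusted p = 0.0281). No eIF2 kinase or phosphatase gene, bZIP partner or mTORC1 regulator on the lists was called in a senescent knockdown comparison, where at most 0.224% of all genes were.

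Over the 12 group means of log2 CPM, the genes most like DDIT3 among 15289 compared were BEX2 (Pearson r = 0.982), HERPUD1 (0.966), HSPA5 (0.962), DNAJC1 (0.940) and FBXO16 (0.933). Those most like ATF4 were C1orf174 (0.935), ADM2 (0.923), PSAT1 (0.892), ARHGEF2 (0.884) and LRRC1 (0.884). Among the members the closest pair was TRIB3 with CHAC1 (0.966), while ATF4 and DDIT3 stood at 0.723 and ATF5 with DDIT4 at -0.61. These coefficients describe 12 points that share libraries, cell lines and scaling, and carry no test.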

How the data were processed

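RNA was polyA-selected from 42 samples and made into directional libraries. The deposited files hold raw read counts per gene symbol, which the authors made by aligning reads and counting them over genes. The labels' processing notes name hg38, DRAGEN, STAR 2.7.8a and DESeq2 1.32.0, while the study's methods name an older hg19 pipeline, so which one made the table could not be settled; symbols were used as given, and 26986 of 28266 matched RefSeq GRCh38. No 2 libraries held identical counts, and all columns were mapped to samples through their labels.

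Counts were tested with edgeR 4.0.16 (R 4.3.3, filterByExpr, TMM, robust quasi-likelihood F test), with 1 fit per cell line (18 and 24 libraries) and 1 joint fit for the difference between both senescence systems, over 19 comparisons, with Benjamini-Hochberg adjustment over all genes of a fit. Standard errors were derived from the fold change and F. All 10 genes were named in every comparison, with up to 4 called genes of smallest adjusted p per pathway list. A list of inflammatory genes and part of a marker list are not reported here. The members and lists were chosen with earlier results of these data known. The functions were tested on simulated data.

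Alternatives were DESeq2 size factors, no filter, the DESeq2 1.42.0 Wald test, the replicate number as a block, only the libraries compared, and each library left out. A block within each treatment, and leaving out 3 bleomycin libraries numbered 4, were added after the data had been seen. Same-numbered libraries deviated together (every correlation at least 0.106) in the IMR90 knockdown comparisons and between the shRNAs, but not in the senescence comparisons or the ER:RAS knockdowns. Libraries of 13148194 to 23597310 reads put the level of 3 counts at 0.11 to 0.271 CPM.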

Additional observations from a re-analysis of the deposited data

Results flagged for a closer look

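In parental IMR90 the DMSO library numbered 1 of the control shRNA stood apart from its 3 companions for 4 of the genes by Dixon's test: ATF5 at 65.6 CPM (others 34.2 to 37.5), TRIB3 at 52.8 (25.7 to 28.8), CHAC1 at 18.4 (7.32 to 8.95) and SESN2 at 74.5 (36.7 to 42.5). It was the highest of the 4 for all 10 members. Its TMM factor was 0.938, against 1.11 to 1.12 in its companions, and a lower factor raises every CPM of a library. In the DMSO group with shRNA 1, replicate 1 again stood apart for TRIB3, at 58.2 CPM (33.7 to 36), and CEBPB, at 157 CPM (96.5 to 102). ATF3 in replicate 1 of the bleomycin group with shRNA 1 was low, at 26.5 CPM (29.7 to 30.3). These are 7 of 60 checks, where chance gives about 1 in 20, and members of 1 library are not independent.

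The response to senescence differed between OIS and bleomycin, by the interaction in edgeR, for 6 members. OIS minus bleomycin was 2.81 on the log2 scale for TRIB3, 1.88 for DDIT4, 1.42 for CHAC1, -1.08 for ATF3, -1.33 for SESN2 and -1.31 for ATF5. For TRIB3, DDIT4, ATF3 and SESN2 the call was present in all 14 fits that left out 1 library, for CHAC1 in 9 and for ATF5 in 5.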

How the results depend on the processing

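No member's called value changed sign under any alternative. Over single libraries left out, 1632 of 1680 values stayed on the same side of the threshold, 35 lost a call and 13 gained one; over the other alternatives 1153 of 1210 did, with 21 lost and 36 gained. Counts of members called moved as follows. Fitting only the libraries compared gave 3 in OIS, 0 with either shRNA in OIS, 0 with shRNA 2 after bleomycin and 3 for the difference between systems, at fewer residual degrees of freedom. For shRNA 2 after bleomycin the count was 1 with no filter, 5 with the DESeq2 Wald test, 4 with the replicate block, 8 with the replicate block within each treatment and 1 without the 3 bleomycin libraries numbered 4. The block within each treatment gave 4 with shRNA 1 after bleomycin and 5 between the shRNAs there. The planned replicate block gave 0 in both of these comparisons. In the ER:RAS interactions the Wald test gave 1 and 2, and either replicate block gave 1 and 1, DDIT3 with both shRNAs. Its adjusted p under the planned block in edgeR was 0.0118 and 0.0182. Same-numbered ER:RAS libraries deviated together between the shRNAs but not in every pair of a knockdown and a control library. Under the planned block 7 members were called in OIS, 6 with bleomycin and 7 for the difference between systems, while calls over all genes rose to 7274 of 14297, 6050 of 14783 and 4711 of 15299. With 1 library left out, the counts ran from 4 to 7 in OIS, 3 to 6 with bleomycin, 4 to 7 for the difference, 1 to 4 and 2 to 5 for shRNA 1 and 2 in OIS, and 1 to 2 for shRNA 2 after bleomycin. The causes were not tested. With 3 or 4 libraries per group, changes smaller than the standard errors given could not be resolved.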
